A study of Arabidopsis thaliana with 6 samples.

Results

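The genes described here are 68 genes of Arabidopsis thaliana whose intensity was lower in seedlings exposed to chitooctaose than in seedlings given water, and which the array's annotation knows by a locus code alone, such as AT5G03230. They were chosen by their values on these same 6 arrays. A probe set, the group of short probes that reads a transcript, qualified if the annotation gave it exactly 1 gene under a locus code, if its mean over the water arrays was at least 100, if every chitooctaose array lay below every water array, and if the chitooctaose mean was at most 65% of the water mean. Of 6513 probe sets with 1 locus-coded gene and a water mean of at least 100, which read 6437 genes, these limits held for 70, or 1.07%, each for a different gene. AT5G61590 and AT1G49200 met the limits and were left out, which leaves the 68. Separation alone was more common. Every chitooctaose array lay below every water array for 867 of the 6513, or 13.3%, and above every water array for 584. The limits of the choice turned upward, with no overlap and a mean at least 1.54 times that of water, held for 249 of the 6513, or 3.82%. The minimum of 100 again applied to the water mean. It thus bounds the higher group for falls and the lower group for rises, and genes that rose from below 100 were not counted. Because the values that chose the genes are those of the comparison, the differences below are descriptions and carry no test.

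The seedlings were whole Col-0 plants, 14 days old, grown in shaken liquid medium under constant light, with about 30 seeds sown per tube and so pooled. One group received chitooctaose to a final concentration of 1 µM for 30 min, and the other received water alone (20 µl into 10 ml of medium). The series counts 3 biological replicates per group, each on its own array, and both groups share ecotype, age and culture. Titles and protocols give 30 min where the series text gives 3 min, and the titles were followed. The short descriptions of the chitooctaose arrays also name water, against their titles and protocols.

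Chitooctaose is a soluble piece of chitin, the polymer of N-acetylglucosamine that stiffens fungal cell walls. Plant cells bind such pieces at the cell surface with receptors that carry LysM domains, and the signal passes through kinases, calcium and reactive oxygen to the nucleus, where the early response is best known for the genes it turns on. How much of a transcript is present depends on its synthesis and on its decay, and a level at a single time does not tell slower synthesis from faster decay. Arrays of whole seedlings likewise do not tell fewer cells of a type from less RNA per cell.

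The gene table says little about what these genes do. It gives 1 of the 68 a descriptive name. AT3G10040 is listed there as HYPOXIA RESPONSE ATTENUATOR1 (HRA1), which encodes a transcription factor known to restrain the response of Arabidopsis to low oxygen. For 49 others the table adds only names of sequenced clones, and for 18 it adds nothing beyond the locus code. That is 1.47% of the genes with a descriptive name, against 2.46% of all 6501 probe sets of the same kind that matched the table. By gene type, 65 are protein-coding, AT2G15940 and AT4G07580 are pseudogenes and AT1G55410 is a transcribed pseudogene, the type of gene copy that no longer encodes a full protein. Pseudogenes made up 4.41% of the lowered genes and 1.26% of all 6501. AT2G15940 was read by the only probe set of the 68 whose name marks probes shared between transcripts, so its signal may come from more than 1 transcript.

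The lowered genes were shorter at the median. Their length in the gene table, introns included, had a median of 1580 bp, against 2300 bp for all probe sets of the same kind, and ran from 318 bp for AT5G26840 to 5763 bp for AT5G36930. In all, 11 of the 68 (16.2%) were under 1000 bp, against 6.34% of the larger set. Their spread over the chromosomes was close to that of the larger set. Chromosome 1 held 18 of the 68 genes (26.5% against 26.0%), chromosome 2 held 9 (13.2% against 14.8%), chromosome 3 held 15 (22.1% against 20.5%), chromosome 4 held 11 (16.2% against 14.2%) and chromosome 5 held 15 (22.1% against 24.4%). These shares and lengths are counts over genes and were not tested.

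Across the 68 genes the chitooctaose mean had a median of 52.8% of the water mean, while it was 95.9% over the 6513 probe sets. The chitooctaose mean was at or below 50% of the water mean for 28 genes and at or below 25% for 7. The ratios compare arrays for the same gene only, since probes differ in brightness. The summed intensities of organ markers given below add different genes and so mostly follow their brightest probe sets. The water means ran from 100.5 for AT4G20820 to 1229 for AT4G28240, and 13 genes had a water mean of at least 500.

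**Figure D1:**
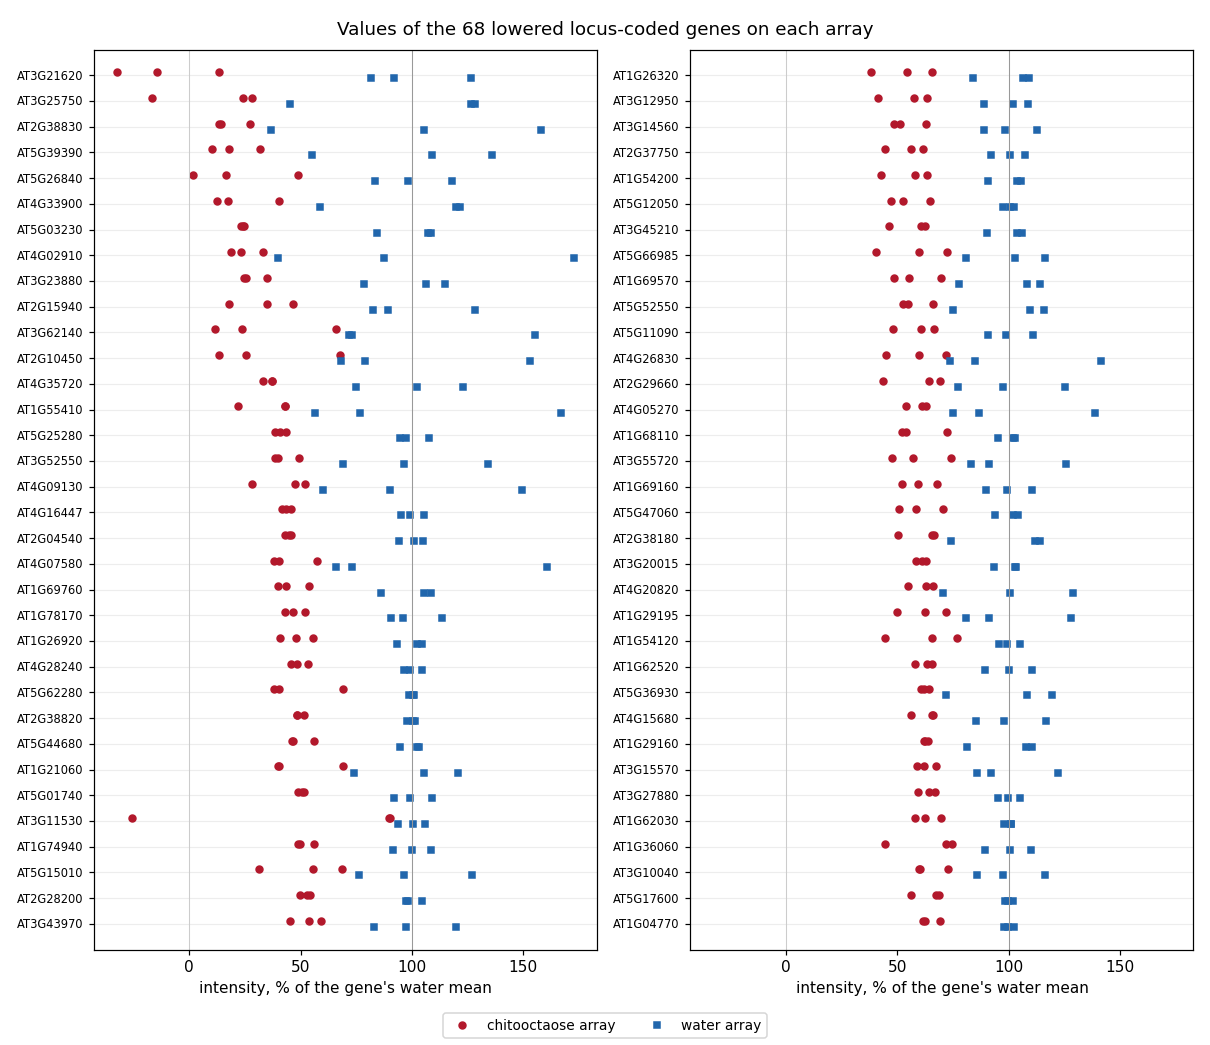
Intensity of each of the 68 genes on each array, as a percentage of the gene's mean over the 3 water arrays (horizontal axis), with circles for chitooctaose arrays and squares for water arrays. Genes run from the lowest ratio, AT3G21620, at the top left to the highest, AT1G04770, at the bottom right, and several of the lowest ratios, such as AT2G38830, belong to genes whose water arrays lie far apart.

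**Figure D2:**
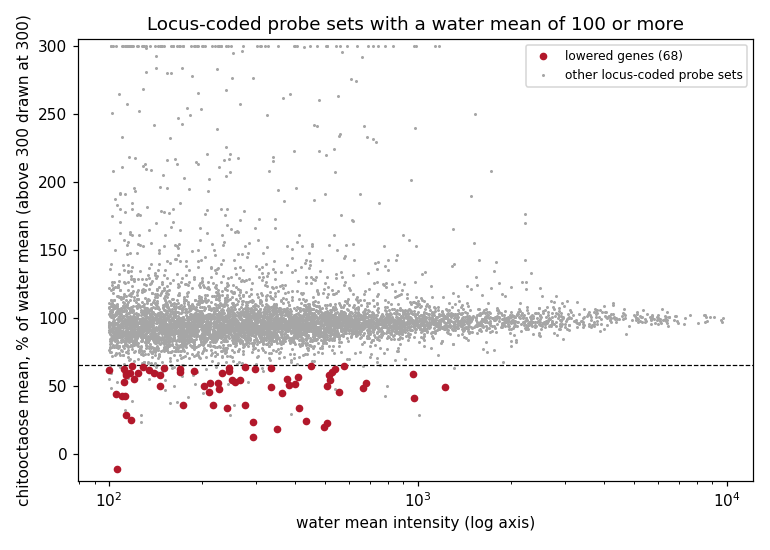
Chitooctaose mean as a percentage of the water mean (vertical axis) against the water mean (horizontal log axis) for the locus-coded probe sets with a water mean of at least 100. The 68 genes lie below the dashed line at 65%, and none of them has a water mean above 1229.

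How clearly the groups were separated differed widely among the 68. As a measure, the highest chitooctaose array was taken as a percentage of the lowest water array. It ran from 16.2% to 99.1%, with a median of 71.2%. The 16.2% belongs to AT3G21620, whose chitooctaose values were near or below 0, so it has no size to read. The next lowest was 29.0% for AT5G03230. The measure was at most 50% for 7 genes, above 50% and up to 70% for 19, between 70% and 90% for 36, and 90% or more for 6.

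**Figure D3:**
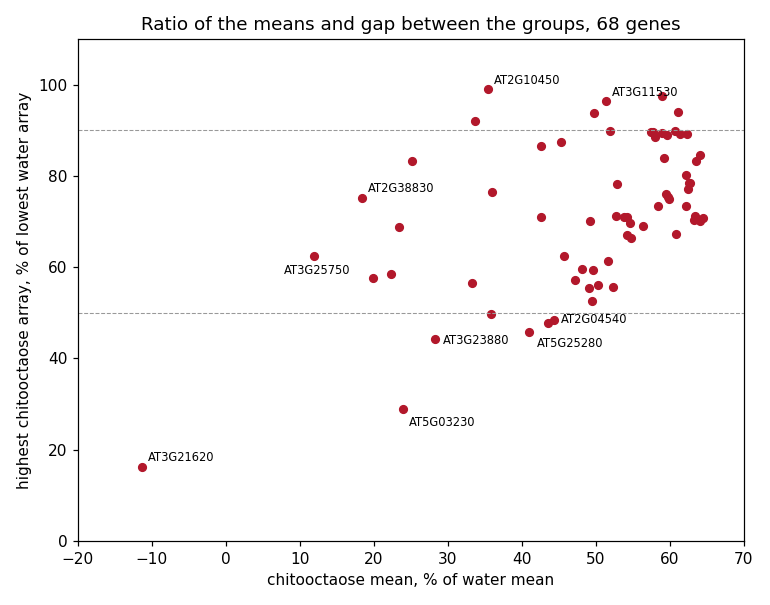
Highest chitooctaose array as a percentage of the lowest water array (vertical axis) against the chitooctaose mean as a percentage of the water mean (horizontal axis), 1 point per gene, with dashed lines at 50% and 90%. AT5G03230 combines a low ratio with a wide gap, while AT2G10450, at 35.4% of its water mean, has groups that almost touch. AT3G21620 had chitooctaose values near or below 0, so neither of its measures has a size to read.

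The 7 genes with the widest gap were AT3G21620, AT5G03230, AT3G23880, AT5G25280, AT4G16447, AT2G04540 and AT4G35720. AT5G03230 had intensities of 105.5, 106.4 and 100.2 on the chitooctaose arrays, against 472.6, 466.8 and 367.6 on the water arrays. Its chitooctaose mean of 104 ± 3.36 was 23.9% of the water mean of 436 ± 59.0 (SD, n = 3 each), and its 3 chitooctaose arrays lay closer together than its water arrays. AT3G21620 had values of -15.4, -34.8 and 14.0 under chitooctaose, against 134.6, 97.9 and 86.6 in water. A value near or below 0 cannot be read as an amount of transcript, and the background correction is not named. The ratio of -11.3% for this gene (-0.65% without chitooctaose replicate 2, -23.6% without replicate 3) therefore has no size to read. AT3G21620 was the only one of the 68 below an intensity of 16 on every chitooctaose array. AT3G23880 had 29.2, 28.0 and 39.6 under chitooctaose, against 121.5, 89.7 and 131.0 in water, so both of its groups were dim.

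AT5G25280 had 398.0, 376.7 and 421.6 on the chitooctaose arrays, against 921.7, 949.5 and 1048 on the water arrays. The means were 399 ± 22.4 and 973 ± 66.4 (SD, n = 3 each), a ratio of 41.0%. AT2G04540 had 155.6, 165.3 and 162.1 under chitooctaose, against 342.2, 381.0 and 367.4 in water. The ratio of its means was 44.3%, and no array of either group stood apart from the others of its group. AT4G16447 had means of 46.1 ± 2.04 under chitooctaose and 106 ± 5.58 in water, a ratio of 43.6%. AT4G35720 had 103.3, 91.3 and 103.0 under chitooctaose, against 283.4, 207.4 and 340.3 in water, with the water arrays further apart than the chitooctaose arrays.

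Among the lowered genes, 12 had close replicates, with an SD of at most 10% of the mean in both groups. Besides AT5G25280, AT4G16447 and AT2G04540 these were AT4G28240, AT2G38820, AT5G01740, AT1G74940, AT2G28200, AT3G20015, AT3G27880, AT1G62030 and AT1G04770. The limit of 10% was not a strict one for these arrays. Over the 6513 probe sets the SD had a median of 8.58% of the mean under chitooctaose and 8.41% in water. The share of the larger set that met the limit in both groups was not counted. AT4G28240 had 592.0, 562.0 and 657.8 on the chitooctaose arrays, against 1216, 1186 and 1285 on the water arrays. Its means were 604 ± 49.0 and 1229 ± 50.7 (SD, n = 3 each), a ratio of 49.1%. AT2G38820 had 71.1, 71.4 and 75.8 under chitooctaose, against 149.5, 144.1 and 147.9 in water. Its ratio of 49.4% moved only between 48.4% and 50.0% when any single array was left out.

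AT5G01740 had 194.8, 197.6 and 186.9 on the chitooctaose arrays, against 352.1, 380.0 and 419.2 on the water arrays, a ratio of 50.3%. AT2G28200 had 119.1, 112.9 and 122.5 under chitooctaose, against 221.7, 220.4 and 236.2 in water, a ratio of 52.3%. The highest chitooctaose array was 56.1% of the lowest water array for AT5G01740 and 55.6% for AT2G28200. AT1G74940 had means of 351 ± 26.8 under chitooctaose and 679 ± 57.4 in water, a ratio of 51.7%. AT3G20015 had means of 115 ± 4.2 under chitooctaose and 189 ± 10.4 in water, a ratio of 60.8%. AT3G27880, AT1G62030 and AT1G04770 had shallower differences, at 63.3%, 63.4% and 64.5% of their water means, yet their highest chitooctaose arrays were still only 70.3%, 71.2% and 70.6% of their lowest water arrays.

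The lowest ratios often came with scattered arrays. Of the 7 genes at or below 25% of the water mean, only AT3G21620 and AT5G03230 were in the group with the widest gap, and 4 of the 7 had a highest water array more than 2 times the lowest. AT2G38830 had 47.5, 49.3 and 96.1 under chitooctaose, against 369.6, 128.0 and 554.8 in water. Its ratio was 18.3%, but its water arrays differed 4.34-fold, the widest spread of any of the 68. AT3G25750 had 82.5, -48.7 and 71.2 under chitooctaose, against 375.5, 132.1 and 370.8 in water, so that replicate 2 was the lowest in both groups. Its ratio of 11.95% became 26.3% without chitooctaose replicate 2, 3.84% without replicate 1 and 5.77% without replicate 3. AT5G39390 had 51.7, 88.2 and 158.6 under chitooctaose, against 543.7, 680.1 and 274.8 in water, here with water replicate 3 well below the other water arrays.

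AT5G26840, the shortest gene, had 248.8, 8.54 and 83.8 on the chitooctaose arrays, against 425.8, 500.5 and 601.0 on the water arrays. Its ratio was 22.3%, and its water arrays were closer together than its chitooctaose arrays. The ratio was 9.07% without chitooctaose replicate 1 and 32.7% without chitooctaose replicate 2. AT4G33900 had 36.8, 118.4 and 50.9 under chitooctaose, against 356.8, 172.0 and 352.0 in water, a ratio of 23.4% with replicate 2 the highest in the chitooctaose group and the lowest in the water group. Without chitooctaose replicate 2 that ratio was 14.9%. A water spread of more than 2-fold, which a choice by the ratio of means can favour, was found in 10 of the 68 genes (14.7%), against 2.12% of the 6513 probe sets. Beside AT2G38830, AT3G25750, AT5G39390 and AT4G33900 these were AT4G02910, AT1G55410, AT4G09130, AT4G07580, AT2G10450 and AT3G62140, so 2 of the 3 pseudogenes were among them. AT4G02910 had 22.2, 27.3 and 39.1 under chitooctaose, against 102.8, 47.1 and 203.5 in water, and its ratio of 25.1% became 39.4% without water replicate 3.

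Among the pseudogenes, AT1G55410 had 74.9, 37.9 and 74.9 under chitooctaose, against 290.4, 98.1 and 133.8 in water, a ratio of 35.9% that became 53.9% without water replicate 1. AT4G07580 had 79.9, 121.3 and 85.4 under chitooctaose, against 138.8, 154.6 and 339.1 in water, and its ratio of 45.3% became 65.1% without water replicate 3. AT2G15940 had 43.5, 113.0 and 84.2 under chitooctaose, against 309.9, 200.01 and 215.4 in water, a ratio of 33.2%. Its groups were the best separated of the 3, with the highest chitooctaose array at 56.5% of the lowest water array.

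In 6 genes the groups almost touched. AT3G11530 had -103.6, 359.9 and 362.3 under chitooctaose, against 403.4, 425.2 and 375.9 in water. Chitooctaose replicate 1 was below 0 while the other chitooctaose arrays lay just under the water arrays, and without it the ratio was 89.95% in place of 51.4%, while it was 32.2% without replicate 2 and 31.9% without replicate 3. AT2G10450 had 146.9, 55.8 and 28.6 under chitooctaose, against 171.6, 148.3 and 333.2 in water, with the highest chitooctaose array at 99.1% of the lowest water array. Its ratio of 35.4% became 19.4% without chitooctaose replicate 1 and 48.2% without water replicate 3. AT3G62140 had 271.7, 47.6 and 98.1 under chitooctaose, against 640.9, 302.3 and 295.6 in water, and replicate 1 was the highest array of both groups. Its ratio of 33.7% became 17.7% without chitooctaose replicate 1 and 46.5% without water replicate 1. AT1G21060, AT4G26830 and AT4G20820 were the others, with ratios of 49.7%, 58.9% and 61.2%. AT4G26830 stood at 74.3% without water replicate 1, and AT4G20820 at 71.5% without water replicate 3, while AT2G10450, AT3G62140 and AT1G21060 stayed below 65% with any array left out.

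The other genes with a gap measure above 50% and up to 70% had groups further apart than those that almost touched. AT1G69760 had 241.2, 221.1 and 298.4 under chitooctaose, against 602.5, 477.6 and 585.0 in water, a ratio of 45.7%. AT1G26920 had 321.5, 272.6 and 371.2 under chitooctaose, against 698.9, 622.9 and 682.3 in water, a ratio of 48.2%. AT5G44680 had 235.8, 237.9 and 285.4 under chitooctaose, against 520.2, 526.1 and 481.4 in water, a ratio of 49.7%. In these genes the highest chitooctaose array was 62.5%, 59.6% and 59.3% of the lowest water array. AT1G78170 stood at 47.2% of its water mean, AT2G37750 at 54.2%, AT1G54200 at 54.6%, AT5G12050 at 54.7% and AT3G45210 at 56.4%. AT5G12050 had 198.7, 177.7 and 243.9 under chitooctaose, against 367.7, 379.8 and 386.4 in water, with the water arrays close together.

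Among the 36 genes with a gap measure between 70% and 90%, AT5G62280 had 127.5, 135.6 and 232.1 under chitooctaose, against nearly equal values of 336.4, 338.4 and 331.4 in water. AT5G11090 had 641.9, 585.2 and 464.7 under chitooctaose, against 952.3, 1069 and 873.6 in water, a ratio of 58.4%. HRA1 (AT3G10040) had 327.3, 270.2 and 268.3 under chitooctaose, against 524.8, 439.2 and 387.2 in water. Its means were 289 ± 33.5 and 450 ± 69.5 (SD, n = 3 each), a ratio of 64.1% that became 69.8% without water replicate 1, so it lay close to the limit of the choice. AT4G15680 had 356.2, 353.3 and 302.2 under chitooctaose, against 461.3, 629.4 and 528.4 in water, a ratio of 62.5%.

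The other genes of this group fall into ranges. AT3G52550, AT4G09130, AT5G15010, AT3G43970, AT1G26320, AT3G12950 and AT3G14560 stood between 42.6% and 54.2% of their water means. AT5G66985, AT1G69570, AT5G52550, AT2G29660, AT4G05270, AT1G68110, AT3G55720, AT1G69160 and AT5G47060 stood between 57.5% and 59.9%. AT2G38180, AT1G29195, AT1G54120, AT1G62520, AT5G36930, AT1G29160, AT3G15570, AT1G36060 and AT5G17600 stood between 60.7% and 64.1%. AT5G17600 had means of 76.1 ± 8.33 under chitooctaose and 118.7 ± 2.03 in water (SD, n = 3 each), with the water arrays the closer together. AT1G29160 had the opposite pattern, with chitooctaose arrays of 93.3, 96.4 and 94.3 that were closer together than its water arrays.

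The choice itself placed every chitooctaose array below every water array for each gene, so the medians by array only describe how far apart they lay. The median of the 68 genes was 53.9%, 48.5% and 53.6% of the water mean on chitooctaose replicates 1, 2 and 3, against 101%, 95.5% and 105% on water replicates 1, 2 and 3. Over the 6513 probe sets the same medians were 97.7%, 92.8% and 98.4% under chitooctaose, against 101%, 96.1% and 103% in water. Replicate 2 was thus the dimmest array of both groups, for the 68 genes as for the larger set. Water replicate 2 was the lowest water array for 37 of the 68 genes (54.4%) and for 54.9% of the larger set. With each array left out in turn, 46 of the 68 stayed at or below 65% of the water mean every time and 22 rose above it at least once, of which only AT3G11530 passed 75%.

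**Figure D4:**
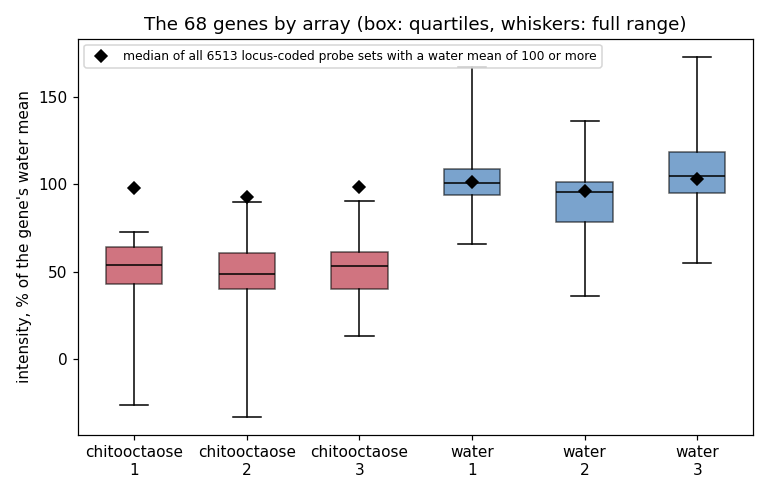
Intensity of the 68 genes on each array as a percentage of the gene's water mean, chitooctaose arrays left of water arrays, with boxes for quartiles, lines for medians and whiskers for the full range. Diamonds give the median of all 6513 locus-coded probe sets with a water mean of at least 100, which stays between 92.8% and 103% on all arrays while the medians of the 68 genes lie near 50% on the chitooctaose arrays.

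Replicates of the 68 genes varied more at the median than those of all 6513 probe sets. A choice by the ratio of 3-array means can favour scattered probe sets, and it lowers the chitooctaose mean by which the SD is divided. The sets were not matched for brightness either, so the extra scatter cannot be read as a trait of the genes. The SD had a median of 15.8% of the mean under chitooctaose and 13.8% in water over the 67 genes with a mean above 0 in both groups, against 8.58% and 8.41% over the 6513. All 3 chitooctaose arrays were below 100 for 23 of the 68 genes, and 4 had at least 1 chitooctaose array below 16.

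Markers of organs were read over the whole arrays. Of 10 shoot markers, 3 had a named probe set, all from the LHCB4 family of photosynthetic antenna proteins. Their summed intensity was 14259 to 15702 under chitooctaose and 15077 to 15781 in water. LHCB4.1 averaged 9000 ± 591 under chitooctaose and 9325 ± 132 in water (SD, n = 3 each). LHCB4.2 averaged 5295 ± 559 under chitooctaose and 5579 ± 301 in water. LHCB4.3 went the other way, with 523 ± 74.4 under chitooctaose and 457 ± 68.2 in water, and the arrays overlapped for each of these genes. Of 11 root markers 4 had one, and their sum, most of it from PYK10, a root beta-glucosidase gene, was 10624 to 11755 under chitooctaose and 10790 to 11254 in water. PYK10 averaged 9644 ± 406 under chitooctaose and 9440 ± 75.4 in water (SD, n = 3 each). The other root markers had lower means under chitooctaose, with overlapping arrays. EXPA7, an expansin gene of root hairs, averaged 107 ± 28.9 under chitooctaose and 137 ± 22.4 in water. EXPA18 averaged 294 ± 51.0 under chitooctaose and 332 ± 57.1 in water. AT5G17820 averaged 1072 ± 118 under chitooctaose and 1146 ± 117 in water. Markers of both organs were thus present on every array, as the label of whole seedlings says, and the summed levels of the groups overlapped. The part of these markers in the lower values of the 68 genes was not tested. The median intensity of the arrays lay between 157.6 and 168.5 under chitooctaose and between 155.7 and 169.2 in water.

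The genes beside the lowered ones were not chosen by their values, so they could be tested. This test was set after seeing the data, in place of a planned one that could not be made. In gene order, counting protein-coding genes and pseudogenes, the 68 genes had 135 direct neighbours, AT2G38823 being next to both AT2G38820 and AT2G38830. None of the neighbours was itself one of the 68, and 58 had a named probe set. None of these 58 was called lower (limma, Benjamini-Hochberg adjusted p under 0.05 over all 22746 probe sets, where 0.805% were called lower), and at an unadjusted p under 0.05 it was 3 of 58, or 5.17%, against 6.34% of all probe sets. Higher were 2 of the 58, or 3.45%, against 4.24% of all probe sets. The median log2 difference was -0.06 over the 58 neighbours and -0.04 over all probe sets.

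The neighbours that rose were AT5G47070 and AT4G20830. AT5G47070, next to AT5G47060, had 624.4, 584.6 and 631.7 on the chitooctaose arrays, against 191.7, 187.6 and 203.6 on the water arrays. Its log2 difference was 1.66 (limma, adjusted p = 6.15e-05). AT5G47060 itself had 373.1, 268.9 and 310.6 under chitooctaose, against 539.9, 553.1 and 497.9 in water, so the groups did not overlap for either gene and lay in opposite order. AT4G20830, next to AT4G20820, had 1962, 1890 and 1936 under chitooctaose, against 710.6, 658.3 and 614.5 in water, a log2 difference of 1.55 (limma, adjusted p = 7.13e-05). AT4G20820 had only 66.4, 63.0 and 55.0 under chitooctaose, against 101.2, 70.7 and 129.6 in water, one of the 6 genes whose groups almost touched. AT4G15690, next to AT4G15680, had means of 380 ± 95.9 under chitooctaose and 490 ± 12.7 in water (SD, n = 3 each), a log2 difference of -0.40 that did not pass the test (adjusted p = 0.474).

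**Figure D5:**
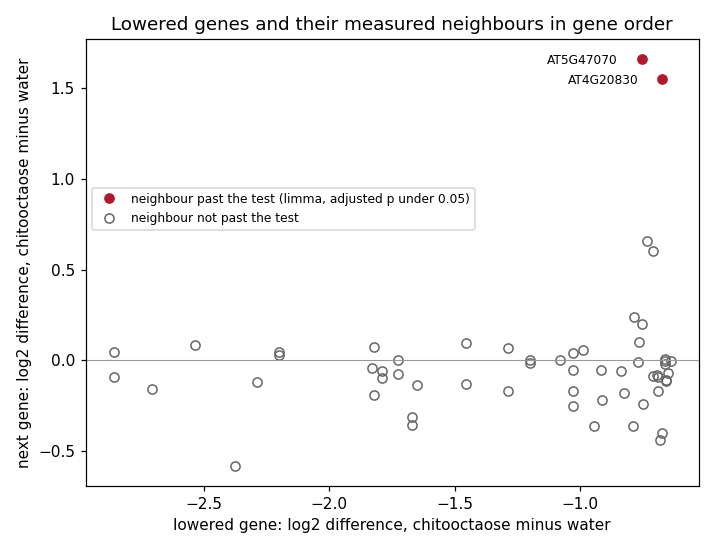
Log2 difference, chitooctaose minus water, of each measured neighbour in gene order (vertical axis, 58 genes) against that of the lowered gene beside it (horizontal axis). Filled points passed the test, which were AT5G47070 at 1.66 and AT4G20830 at 1.55, and all other neighbours are drawn as open points.

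Some lowered genes lay near each other in gene order without being direct neighbours. AT2G38820 and AT2G38830 were 2 positions apart, with a gene between them that had no named probe set, and their values differed in kind. AT2G38820 had some of the closest replicates of the 68, and AT2G38830 the widest spread in water. AT2G38840, on the other side of AT2G38830, had means of 138 ± 13.2 under chitooctaose and 150 ± 6.59 in water and did not pass the test (limma, adjusted p = 0.731). AT1G29160 and AT1G29195 were 5 positions apart, AT1G54120 and AT1G54200 were 7 apart, and AT1G69570 and AT1G69760 were 20 apart.

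The limits of the choice fell within a continuous range. Just inside the limit of 65% lay HRA1 at 64.1%, AT5G17600 at 64.1% and AT1G04770 at 64.5%, and just outside it lay AT3G22970 at 65.04%, AT1G48330 at 65.1% and AT2G36090 at 65.4%. Just above the water minimum lay AT4G20820 at 100.5, AT4G16447 at 105.8 and AT3G21620 at 106.4, and 149 locus-coded probe sets met the other limits with a water mean below 100, the nearest being AT2G04710 at 97.6, AT5G42450 at 96.5 and AT5G44230 at 96.1. A further 52 probe sets met the ratio and the water minimum but had overlapping groups. Among these was AT4G10270, with 1058, 827.5 and 584.2 under chitooctaose, against 1505, 1370 and 1050 in water.

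The same limits were met by 5 of 1105 probe sets whose gene carries a symbol, or 0.452%, and by 86 of 6132 probe sets with no gene in the annotation, or 1.40%. The 5 genes with a symbol were CYP718, a cytochrome P450 gene, WAG2, a kinase gene of auxin transport, XERICO, a RING-type gene linked to abscisic acid, SIM (SIAMESE), an inhibitor of the cell division cycle, and tny (TINY), a transcription factor of the AP2 family. Their chitooctaose means stood at 33.3%, 41.0%, 43.4%, 53.1% and 57.3% of their water means, within the range of the 68. These shares were not tested against each other.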

How the data were processed

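The authors deposited 1 table of linear intensity values for 22810 probe sets on 6 arrays. Per the labels, biotin-labelled cRNA was made from 7 µg of total RNA by the standard Affymetrix protocol. No source used here names the summary algorithm, background correction or scaling. Between 163 and 213 values per array were below 0.

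Genes came from the platform annotation (13513 probe sets with 1 gene, 503 with several, 8730 with none) and gene type, length and order from a RefSeq gene table of TAIR10.1, whose coordinates are not printed, as the array's build is not stated. Arrays were grouped by title, 3 per treatment. The rule was applied to the deposited intensities. Every gene that met it is named, with the 3 genes just inside and outside its ratio limit and its water minimum. The 68 genes, the lists and the rule were chosen with earlier results of these data known.

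All 22746 probe sets other than 64 controls were fitted with limma 3.58.1 in R 4.3.3 on log2 intensity with a floor of 16, 2-sided, with eBayes and a mean-variance trend and Benjamini-Hochberg adjustment over all of them. The fit was tested on simulated data. The design had named relatives and function classes by protein description. The gene table used here holds no descriptions, so neither was made, and direct neighbours in gene order, chosen after seeing the data, took the place of relatives. Promoter and protein features were not analysed here. The number of arrays limits the precision. Same-numbered arrays were not treated as pairs.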

Additional observations from a re-analysis of the deposited data

How the results depend on the processing

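The choice gave 68 genes. It gave 63 with medians in place of means (56 of them among the 68), and 74 after centring each array on its median and 74 after quantile normalization (67 and 66 among the 68). Limits set elsewhere change the count by construction: 28 with a ratio limit of 50%, 145 with 75%, 125 with a water mean of at least 50 and 43 with at least 200. With 1 array left out it was 75 to 125 genes, the largest number without water replicate 2 and 104 without chitooctaose replicate 1, as fewer arrays make overlap rarer, and 57 to 65 of the 68 were among them. The log2 differences of all 68 genes kept their sign under 12 other settings, and those of the 50 genes left kept it without the dimmest 40% of probe sets, which removes the other 18. Except after median centring or quantile normalization, the choice fixed this in advance, since every chitooctaose array lay below every water array. The log2 differences moved by more than the spread between replicates in 7 cases, all with another floor, 3 of them for AT3G21620 and AT3G25750. That spread includes the array left out, so an outlying array can hide its own effect. AT3G11530 was thus not counted without chitooctaose replicate 1, where its ratio of means rose from 51.4% to 89.95%. Nor was AT5G26840 without chitooctaose replicate 2, where its ratio rose from 22.3% to 32.7%. The log2 difference of AT3G21620 was -2.71 with a floor of 16, -5.44 with 1 and -0.71 with 64, so its size is set by the floor.

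Over all probe sets (limma, adjusted p under 0.05) the falls were 183 and the rises 964. With single arrays left out it was 86 to 176 falls (86 and 95 when water replicate 1 or 3 was dropped, and 95, 105 and 103 when chitooctaose replicate 1, 2 or 3 was) and 721 to 835 rises, with fewer arrays in the model. With the replicate number as a block it was 93 falls and 754 rises, and 89 genes met the choice when each chitooctaose array had only to lie below the water array of the same number. The replicate numbers were not taken as pairs: after removing group means, the correlation within a number was 0.05, 0.03 and -0.10, and only 1 of the 6 arrays was closest to the array that shares its number. Among the 58 neighbours there were 0 falls under every setting, and 2 rises under every setting except without chitooctaose replicate 2, which gave 3. Tests of relatives by description were not run.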
